A study of Arabidopsis thaliana with 18 samples.

Results

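AT4G12490 and AT5G01870 are genes of the plant lipid transfer protein family. They were taken from a whole-genome array study of Arabidopsis thaliana ecotype Ws-2 as the probe sets that name these loci, 1 probe set for each gene, and they are 2 of the 13355 genes that a probe set named singly. Both were chosen by signal intensities on these same arrays, in comparisons that are not recorded, so their levels and differences are given as a description, with standard errors and without p-values. Each group held 3 samples, each of 40 to 50 pooled plants on 1 Affymetrix ATH1 array. The groups were roots and shoots of caesium-treated plants (dilute Murashige and Skoog nutrient solution with 2 mM caesium), of potassium-starved plants (the dilute solution without potassium) and of control plants, for which the labels give no treatment text. Caesium is an alkali metal ion that resembles potassium and enters plant cells partly through potassium transport proteins. All plants carry the label Ws-2 and no transgene is named. The labels number the samples 1 to 3 and do not say that they came from separate sowings, so that the spread between them may be technical.

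Lipid transfer proteins are small secreted proteins held together by disulphide bridges around a hydrophobic tunnel that can hold a fatty acid or another lipid. They have been linked to the deposition of cutin, wax and suberin at plant surfaces and to defence against microbes. AT4G12490 lies in a tandem cluster on chromosome 4 that also holds AZI1 and EARLI1; proteins of this cluster join a proline-rich stretch to a lipid transfer domain, and AZI1 is needed for the systemic defence priming set off by azelaic acid. In the RefSeq annotation of TAIR10.1, AT4G12485 and then EARLI1 lay on one side of AT4G12490, and AT4G12495 and then AT4G12500 on the other. AT5G01870, on chromosome 5 between AT5G01860 and AT5G01880, belongs to the type 1 lipid transfer proteins, the classic small extracellular form.

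Levels are signal intensities on a linear scale that the authors set so that the trimmed mean of each array is about 100; array medians lay between 33.0 and 45.4. A signal of 28.3 in roots or 27.9 in shoots, the 40th percentile of mean signal, was the floor for a probe set to be tested. Both members passed it in both organs, but AT4G12490 passed in roots only through the caesium-treated arrays: its control root mean of 28.2 lay just under the floor and its potassium-starved root mean of 29.1 just above. Levels are compared between arrays for 1 probe set at a time, never between genes. Fewer cells expressing a gene and less RNA per cell cannot be told apart in these whole organs.

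The 3 shoot arrays numbered 2 stood apart from the other shoot arrays of their own treatment. In every treatment 15 of 13647 tested probe sets (0.11%) had a signal on replicate 2 at least 5 times that of both other arrays, and AT4G12490 was one of them, the 11th by the size of this gap, with a lowest ratio of 6.33. AT1G76960 headed the list: it read 310.3, 547.4 and 221.9 on the caesium-treated, potassium-starved and control shoot arrays numbered 2, and at most 1.2 on the other 6 shoot arrays and 1.3 on the 9 root arrays. AT1G66100, which encodes a thionin, the defensin gene PDF1.2, the thionin gene THI2.2, QQS, which acts in starch metabolism, and ECS1, which encodes a small cell wall protein, were among the others. AT5G01870 was not (lowest ratio 0.804, in control shoots), though replicate 2 was its highest array in caesium-treated shoots (67.3) and potassium-starved shoots (62.1). Root markers also moved with the shoot arrays numbered 2: the summed signal of the 3 of 5 root markers with a named probe set was 997 in caesium-treated, 937 in potassium-starved and 1253 in control shoots of replicate 2, against 78.7 to 569 on the other 6 shoot arrays and 2092 to 3630 in roots. The part that this plays in the AT4G12490 signal was not tested. Shoot results for AT4G12490 are therefore given with and without these 3 arrays.

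**Figure D1:**
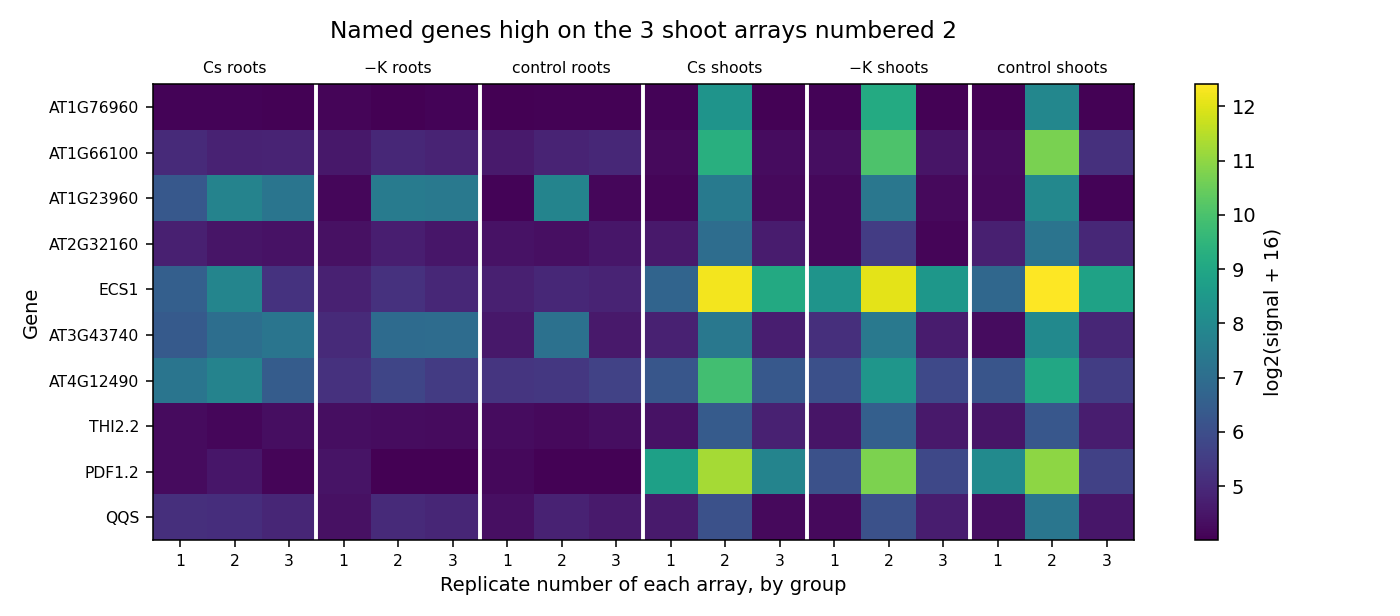
Signals, as log2(signal + 16), of the 10 named genes that were at least 5 times higher on replicate 2 than on both other arrays in each shoot group, 1 column per array by group and replicate number, to be read along each row. AT4G12490 is high on the 3 shoot arrays numbered 2 (324.8 to 916.4) and, unlike most of the other genes, also on the caesium-treated root arrays (70.8 to 199.2).

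Root arrays were not uniform for these genes either. AT1G23960 read 63.4, 200.2 and 138.2 in caesium-treated roots, 2.0, 164.3 and 152.3 in potassium-starved roots and 0.9, 204.4 and 1.8 in control roots. AT3G43740 read 68.2, 114.3 and 138.5 in caesium-treated roots, 16.0, 108.4 and 109.1 in potassium-starved roots and 7.2, 124.0 and 8.1 in control roots. Both genes were thus high on all 3 caesium-treated root arrays, on potassium-starved replicates 2 and 3 and on control replicate 2, and low on the other 3 root arrays. This pattern ran in part with the treatment and in part with the replicate number, although every sample carries the same ecotype label. Whether the samples differed in origin was not tested, and the AT4G12490 differences in roots are given within each replicate below.

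In roots, AT4G12490 was higher with caesium. Its signal was 138.6, 199.2 and 70.8 in caesium-treated roots (mean 136 ± 64.2, SD, n = 3). Potassium-starved roots gave 20.5, 38.3 and 28.4 (29.1 ± 8.92), and control roots gave 23.9, 25.4 and 35.2 (28.2 ± 6.14). Every caesium-treated root array lay above every array of the other root groups, while the potassium-starved and control arrays overlapped, at levels around the floor.

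The log2 difference of AT4G12490 between caesium-treated and control roots was 1.70 ± 0.28 (SE, moderated as described below), a ratio of mean signals of 4.84. This SE pools unequal spreads: the log2 SD was 0.66 in caesium-treated, 0.29 in potassium-starved and 0.19 in control roots. Groups of 3 that do not overlap, with caesium-treated roots higher, were found for 7.44% of the 13646 probe sets tested, and 0.0% passed an adjusted p of 0.05 in this comparison; 1354 had an unadjusted p under 0.05, and 50 passed when the replicate number was added as a block. Between caesium-treated and potassium-starved roots the difference was 1.68 ± 0.28, again with no overlap, as for 16.4% of the probe sets tested. Between potassium-starved and control roots it was 0.02 ± 0.28. These sizes depend on the constant of 16 that was added to each signal, because the lower groups were dim: with 1 added the difference from control was 2.13, and with 64 it was 1.07.

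Within replicates the AT4G12490 difference from control roots was 1.95, 2.38 and 0.76, and that from potassium-starved roots was 2.08, 1.99 and 0.97. Since the groups did not overlap, each of these differences had to be positive. Replicate numbers did not pair caesium-treated with potassium-starved roots (lowest r 0.0861). The largest difference from control, 2.38, came from caesium-treated replicate 2, an array whose title marks it as a repeat. Without that array the difference from control was 1.40. In replicates 1 and 3, AT1G23960 and AT3G43740 were high in caesium-treated roots and low in control roots, the direction of AT4G12490. In replicate 2 they were high in both groups, while AT4G12490 read 199.2 with caesium and 25.4 in control roots. They were also high in potassium-starved roots of replicates 2 and 3, where AT4G12490 read 38.3 and 28.4. What lies behind their pattern was not tested, nor was its part in the AT4G12490 difference. The scanner background given in the labels was 66.48, 63.59 and 72.51 in caesium-treated roots, 61.05, 60.97 and 73.96 in potassium-starved roots and 79.15, 75.72 and 76.05 in control roots. All 3 caesium-treated values lay below the control values but overlapped those of potassium-starved roots, and their part in the result was not tested. Summed signals of the 5 measured shoot markers, of 6, were 289 to 420 in caesium-treated roots, 170 to 278 in potassium-starved roots and 117 to 231 in control roots, against 6481 to 13276 in shoots; this too was higher in caesium-treated roots, and its part was not tested.

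**Figure D2:**
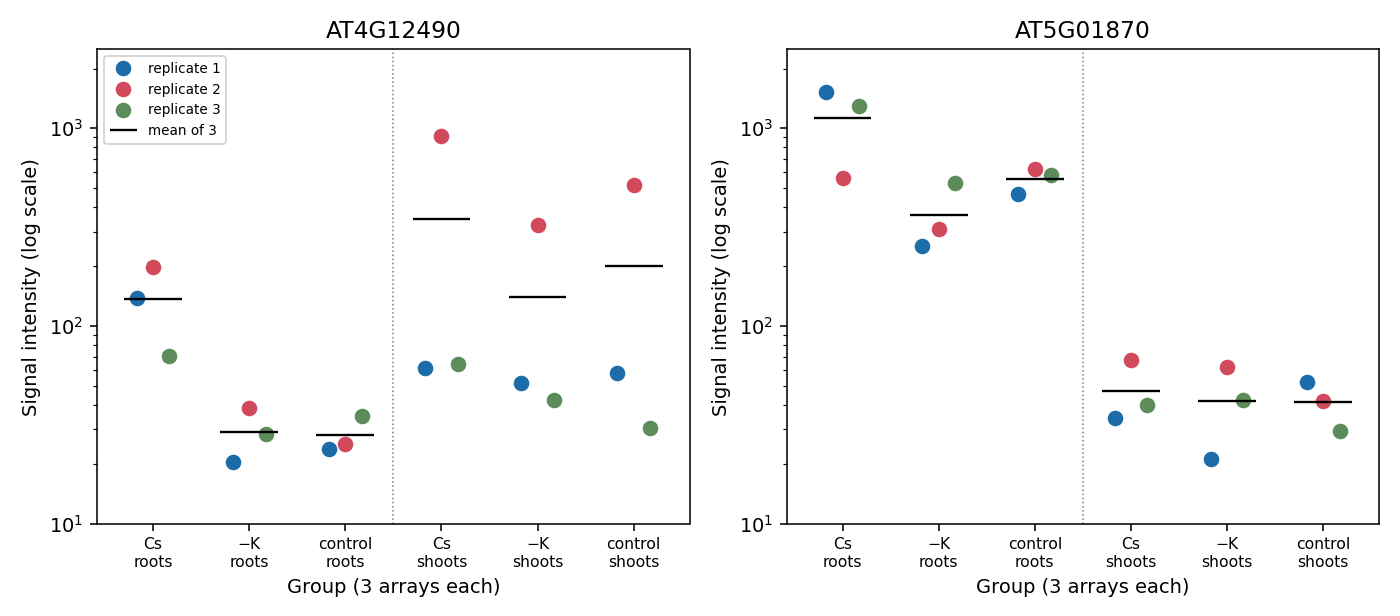
Signal intensity of AT4G12490 (left) and AT5G01870 (right) on each of the 18 arrays, on a log scale; points are arrays, coloured by replicate number, and bars are means of 3. AT4G12490 stands highest on the shoot arrays numbered 2 and, in roots, on the caesium-treated arrays, whereas all 9 root arrays of AT5G01870 (254.0 to 1529.5) lie above its 9 shoot arrays (21.2 to 67.3).

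In shoots the replicate number outweighed the treatment for AT4G12490. The signals were 61.2, 916.4 and 64.1 in caesium-treated shoots (347 ± 493). They were 51.3, 324.8 and 42.2 in potassium-starved shoots (139 ± 161) and 57.8, 513.8 and 30.4 in control shoots (201 ± 272). All 3 groups overlapped, and in each of them the highest array was replicate 2, as it was for 8.25% of the probe sets tested.

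The pooled log2 differences of AT4G12490 in shoots were 0.56 ± 1.10 between caesium-treated and control plants, -0.15 ± 1.10 between potassium-starved and control plants and 0.70 ± 1.10 between caesium-treated and potassium-starved plants. With the replicate number as a block the same estimates had a standard error of 0.23. Within replicates, caesium-treated shoots differed from control shoots by 0.06, 0.82 and 0.79 and from potassium-starved shoots by 0.20, 1.45 and 0.46, in all cases upwards. Potassium-starved shoots differed from control shoots by -0.13, -0.64 and 0.33, in both directions. Without the 3 arrays numbered 2, the difference was 0.43 between caesium-treated and control shoots, 0.33 between caesium-treated and potassium-starved shoots and 0.10 between potassium-starved and control shoots, each with a standard error of 0.24.

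Over all groups the AT4G12490 means ranked caesium-treated shoots, control shoots, potassium-starved shoots, caesium-treated roots, potassium-starved roots and control roots. Only caesium-treated and potassium-starved roots were neighbours in this order whose ranges did not overlap. The order rests on the shoot arrays numbered 2: without them caesium-treated roots (136) came first, followed by caesium-treated shoots (62.6), potassium-starved shoots (46.8), control shoots (44.1), potassium-starved roots and control roots. The caesium response was larger in roots than in shoots by 1.14 ± 1.25 log2 units, which became 1.14 ± 0.38 with the replicate block and 1.27 ± 0.42 without the shoot arrays numbered 2. For potassium starvation the root response exceeded the shoot response by 0.17 ± 1.25.

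AT5G01870 had its high signal in roots. The caesium-treated roots read 1529.5, 557.1 and 1296.4 (1128 ± 508), the potassium-starved roots 254.0, 308.2 and 527.8 (363 ± 145), and the control roots 465.3, 618.8 and 578.4 (554 ± 79.6). Caesium-treated shoots read 34.1, 67.3 and 39.8 (47.1 ± 17.8), potassium-starved shoots 21.2, 62.1 and 42.4 (41.9 ± 20.5), and control shoots 52.1, 41.9 and 29.4 (41.1 ± 11.4). All 9 root arrays lay above all 9 shoot arrays, which was so for 12.0% of the 11846 probe sets tested in both organs. Mean signals were 24.0 times higher in roots than in shoots of caesium-treated plants (30.5 without the shoot arrays numbered 2). They were 8.67 times higher in potassium-starved plants (11.4 without these arrays) and 13.5 times in control plants (13.6 without these arrays). The lowest root array exceeded the highest shoot array by 8.28, 4.09 and 8.93 times in the same order of treatments; root groups that lay wholly above the shoot group were found for 33.1%, 35.2% and 35.4% of these probe sets.

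Among root groups, AT5G01870 was highest with caesium and lowest without potassium. Caesium-treated roots lay wholly above potassium-starved roots, as for 16.4% of the probe sets tested. The log2 difference was 1.54 ± 0.35, with a ratio of means of 3.10. Between arrays of the same number it was 2.52, 0.82 and 1.27, although the numbers did not pair these samples (lowest r 0.0861). Caesium-treated and control roots overlapped (0.89 ± 0.35, ratio 2.03), since caesium-treated replicate 2 fell below 2 of the control arrays: the within-replicate values were 1.68, -0.15 and 1.14. That array is one of 2 root arrays whose titles mark them as repeats, with potassium-starved replicate 1; without both, the difference from control was 1.33 ± 0.23. Potassium-starved and control roots overlapped too, at -0.64 ± 0.35. Between arrays of the same number the differences were -0.83, -0.97 and -0.13. Replicate numbers did not pair the samples in this comparison (lowest r -0.0307), so another matching of the arrays would be as good. Without the 2 repeats the difference between potassium-starved and control roots was -0.43 ± 0.23.

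The shoot groups of AT5G01870 did not separate. The log2 differences were 0.13 between caesium-treated and control shoots, -0.03 between potassium-starved and control shoots and 0.15 between caesium-treated and potassium-starved shoots, each with a standard error of 0.29. The root response exceeded the shoot response by 0.77 ± 0.49 for caesium and by -0.62 ± 0.49 for potassium starvation. In the order of the 6 means, neighbours overlapped except potassium-starved roots and caesium-treated shoots, the step between the organs.

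**Figure D3:**
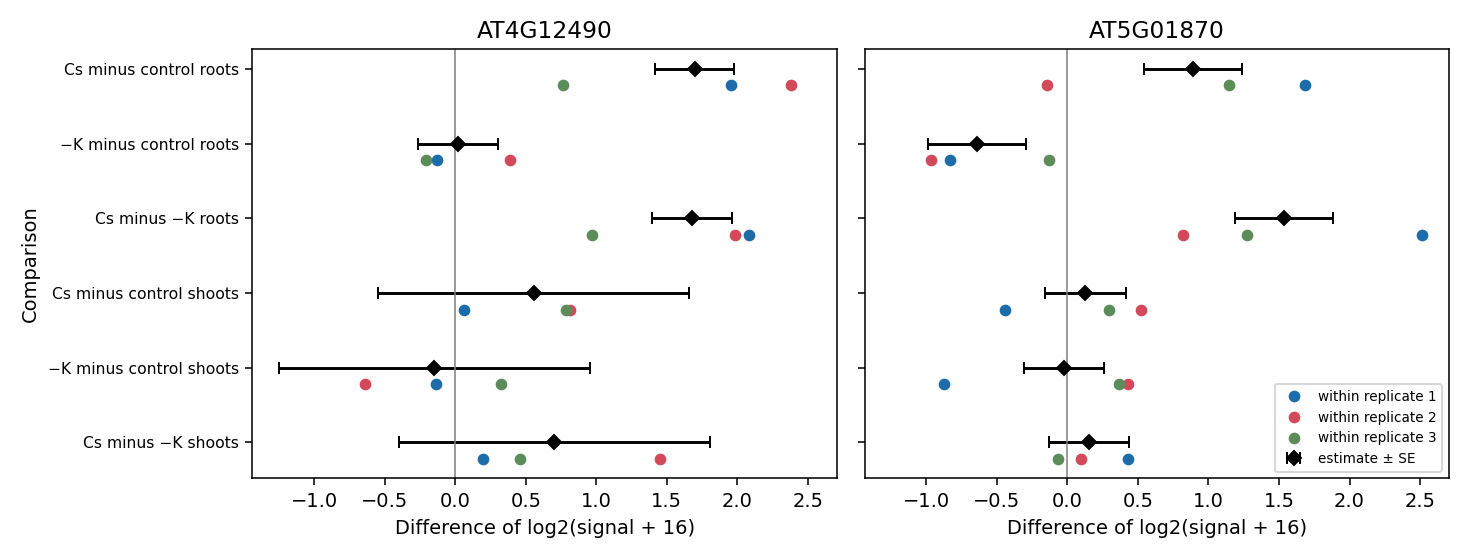
Differences of log2(signal + 16) for the 6 comparisons within organs, the group named first minus the second (Cs, caesium-treated; −K, potassium-starved): diamonds are model estimates with their standard errors, and coloured points are the differences within each replicate number. The AT4G12490 bars are wide in shoots (SE 1.10) and narrow in roots (SE 0.28), and the AT5G01870 estimates from roots run from -0.64 to 1.54 while those from shoots lie near 0.

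The members shared the caesium-treated roots as their highest root group. In both genes caesium-treated roots lay wholly above potassium-starved roots, as for 16.4% of the probe sets tested in roots. AT4G12490 did not have the step of AT5G01870 between organs. AT4G12490 averaged 0.392 times as much in roots as in shoots of caesium-treated plants, 0.208 times in potassium-starved and 0.140 times in control plants, with overlap in caesium-treated and control plants. Without the 3 shoot arrays numbered 2 these ratios were 2.17, 0.622 and 0.639: all caesium-treated root arrays then lay above the caesium-treated shoot arrays left, and all potassium-starved root arrays below theirs, with overlap in control plants. Across the arrays of 1 organ, which share treatments and replicate numbers, the log2 signals of the members correlated with r = 0.58 in roots and 0.68 in shoots (9 arrays each). Over all 18 arrays r was -0.21. By likeness to AT4G12490, AT5G01870 ranked 568th of 7407 named probe sets in roots and 174th of 7342 in shoots. By likeness to AT5G01870, AT4G12490 ranked 1063rd and 71st.

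The rest of the chromosome 4 cluster could be followed through 2 further genes of the 8 listed. AT4G12500, the next gene of the cluster measured here, read 28.5, 34.9 and 19.4 in caesium-treated roots, 12.5, 17.2 and 16.3 in potassium-starved roots and 8.0, 5.0 and 10.1 in control roots. These groups did not overlap, but the mean over roots lay below the floor, so the gene was not tested there. Among the probe sets tested, caesium-treated roots lay wholly above control roots for 7.44% and wholly above potassium-starved roots for 16.4%. In shoots AT4G12500 read 36.5, 117.8 and 33.8 with caesium, 28.8, 75.7 and 15.4 without potassium and 19.6, 89.6 and 13.2 in controls, highest on the arrays numbered 2. Its caesium-treated shoots exceeded potassium-starved shoots by 0.48 ± 0.54 (adjusted p = 0.534 by limma). With the replicate block, which pairs the shoot samples, this difference passed (adjusted p = 0.0306), as did 39.5% of all tested probe sets.

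AT4G12530, a gene of the same cluster, stayed below the floor in both organs, with signals of 6.2 to 16.2 in roots and 11.7 to 27.5 in shoots, the highest shoot values being those of potassium-starved plants (23.4 to 27.5). Whether probes of 1 gene of the cluster also bind transcripts of another was not tested. Over the 9 shoot arrays AT4G12500 followed AT4G12490 with r = 0.97, the second highest of 7342 named probe sets.

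**Figure D4:**
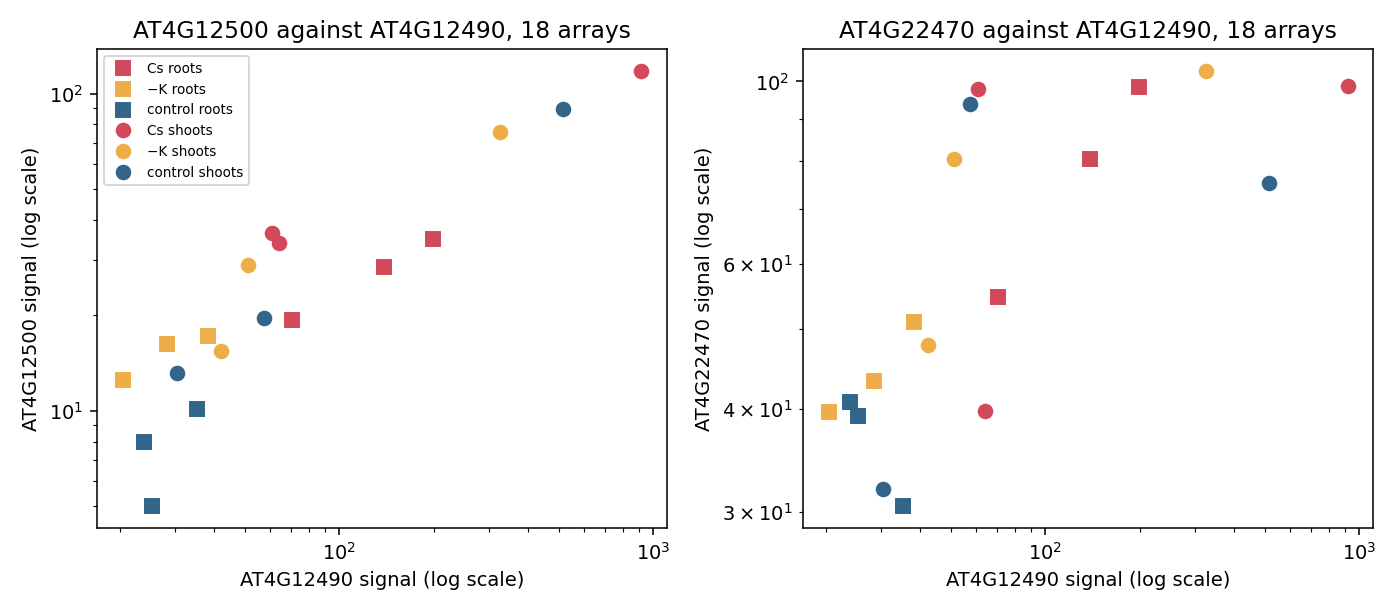
Signals of AT4G12500 (left) and AT4G22470 (right) against those of AT4G12490 on the 18 arrays, log scales; squares are roots, circles shoots, and colours the treatments (Cs, caesium-treated; −K, potassium-starved). In both panels the caesium-treated roots lie above and to the right of the other roots; the 3 circles farthest right are the shoot arrays numbered 2.

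Of the type 1 proteins, the class of AT5G01870, 3 of 14 others had a named probe set, and AT2G18370 alone was tested. It was also a root gene, at 619.4 to 1128.8 in caesium-treated, 683.4 to 1354.8 in potassium-starved and 510.9 to 761.3 in control roots, against 23.1 to 100.1 on all shoot arrays. Its highest root group was the potassium-starved one, the lowest of AT5G01870, and its differences did not pass: 0.36 ± 0.28 for caesium-treated against control roots (adjusted p = 0.707), 0.72 ± 0.28 for potassium-starved against control roots (adjusted p = 0.206) and -0.35 ± 0.28 for caesium-treated against potassium-starved roots (adjusted p = 0.460).

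The wider family was read from 4 lists that hold 54 relatives besides the 2 members: the chromosome 4 cluster, the type 1 proteins, the membrane-anchored and other lipid transfer proteins, and hybrid proline-rich proteins encoded elsewhere. A named probe set was found for 19 relatives, of which 11 were tested in roots and 14 in shoots. In roots 0 of 11 passed in any comparison, where 0.0% of all tested probe sets passed for caesium-treated against control roots, 1.49% for potassium-starved against control roots and 5.09% for caesium-treated against potassium-starved roots. The median log2 differences of the relatives were 0.16, 0.11 and 0.19 in that order, beside 0.01, -0.02 and 0.03 over all tested probe sets. By limma, an unadjusted p under 0.05 was found for 1354, 2507 and 3392 of all 13646 tested probe sets in the same order. Among the 11 relatives 2, 2 and 3 had such a p. The smallest of these in caesium-treated against control roots was that of AT4G22470, a hybrid proline-rich protein gene: it read 80.5, 98.4 and 54.8 with caesium, 39.7, 51.0 and 43.3 without potassium and 40.8, 39.2 and 30.5 in controls, a difference from control of 0.81 ± 0.18 (adjusted p = 0.170).

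In shoots, potassium starvation was the treatment under which relatives passed. Of 14 tested, 3 rose and 2 fell in potassium-starved against control shoots, beside 12.2% and 17.3% of all tested probe sets. Their median difference was 0.30, against -0.12 over all tested probe sets. With the replicate block 8 relatives passed, as did 40.8% of all probe sets. The shares over all probe sets depend on the scaling: with each array centred on its median, which moved the median of all probe sets to -0.01, 14.8% rose and 13.5% fell, and 4 relatives passed. Against control, caesium-treated shoots had 0 of 14 past the threshold, where 1.03% of all probe sets passed. At an unadjusted p under 0.05 by limma there were 2, beside 2068 of all 13647 probe sets. The block added AT3G18280 (0.88 ± 0.30, adjusted p = 0.188 without and 0.0292 with the block), where 5.83% of all probe sets passed. Between caesium-treated and potassium-starved shoots 1 relative was higher and 2 lower past the threshold, beside 18.8% and 9.83% of all probe sets, with a median of -0.10 against 0.13, and the block brought the number to 5 of 14, where 39.5% of all probe sets passed. With median centring, which moved the median of all probe sets to -0.06, 11.2% were higher and 15.8% lower, and 3 relatives passed.

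The membrane-anchored and other lipid transfer genes held the rises. AT2G44300 read 223.5, 145.9 and 174.8 in potassium-starved shoots against 58.9, 70.4 and 91.3 in control shoots, a rise of 1.14 ± 0.21 (adjusted p = 0.0036), and caesium-treated shoots, at 73.4, 61.6 and 99.7, were lower than potassium-starved ones by a log2 difference of -1.07 ± 0.21 (adjusted p = 0.00618). AT1G62790 read 368.6, 428.0 and 234.6 in potassium-starved shoots and 171.3, 147.4 and 134.2 in control shoots (1.07 ± 0.23, adjusted p = 0.00655). Its caesium-treated shoots, at 122.4, 179.9 and 170.7, differed from potassium-starved shoots by -1.03 ± 0.23 (adjusted p = 0.00953). Without the arrays numbered 2 the adjusted p of AT1G62790 was 0.0527 against control and 0.0564 between caesium and potassium starvation. For both genes every potassium-starved shoot array lay above every array of the other shoot groups; 17.4% of all probe sets lay wholly above control in this way.

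AT1G48750 read 643.5, 682.2 and 1285.9 in potassium-starved shoots and 314.3, 116.7 and 487.6 in control shoots (1.59 ± 0.52, adjusted p = 0.0410), a call that held in 1 of 6 fits that left out an array, where the adjusted p reached 0.121; after quantile normalization it was 0.0645. AT5G48490, a close relative of the defence signalling protein DIR1, fell: it read 198.8, 555.2 and 576.9 in potassium-starved shoots and 775.4, 738.9 and 1077.1 in control shoots (-1.06 ± 0.35, adjusted p = 0.0436). This call held in 2 of 6 such fits, the adjusted p reaching 0.138, and it was 0.0647 without the arrays numbered 2 and 0.0825 with median centring. Its signals in roots were 7.9 to 25.8.

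Of the hybrid proline-rich genes outside the cluster, AT2G10940 fell in potassium-starved shoots, where it read 442.0, 429.1 and 804.0, against 1589.8, 2151.1 and 2161.8 in control shoots (-1.83 ± 0.24, adjusted p = 0.000646). Caesium-treated shoots, at 1546.2, 1178.4 and 1330.7, lay above potassium-starved ones (1.303 ± 0.24, adjusted p = 0.00482). The signals of potassium-starved shoots did not overlap those of either other group, and 26.2% of all probe sets lay wholly below control shoots. The response to potassium starvation differed between roots and shoots for 3 of the 10 relatives tested in both organs, AT1G62790, AT2G44300 and AT2G10940. It did so for 9.99% of all probe sets. The response to caesium differed for 0 of 10, beside 0.177%. At an unadjusted p under 0.05 by limma it differed for 1, beside 1184 of all 11846 probe sets. With the replicate block, AT3G18280 (0.62, adjusted p = 0.0277), AT3G58550 (0.61, adjusted p = 0.0117) and AT1G62500 (-0.73, adjusted p = 0.0368) also passed between potassium-starved and control shoots, and AT1G48750 (-0.76, adjusted p = 0.0346) between caesium-treated and potassium-starved shoots. Without the block their adjusted p-values were 0.144, 0.131, 0.169 and 0.293.

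**Figure D5:**
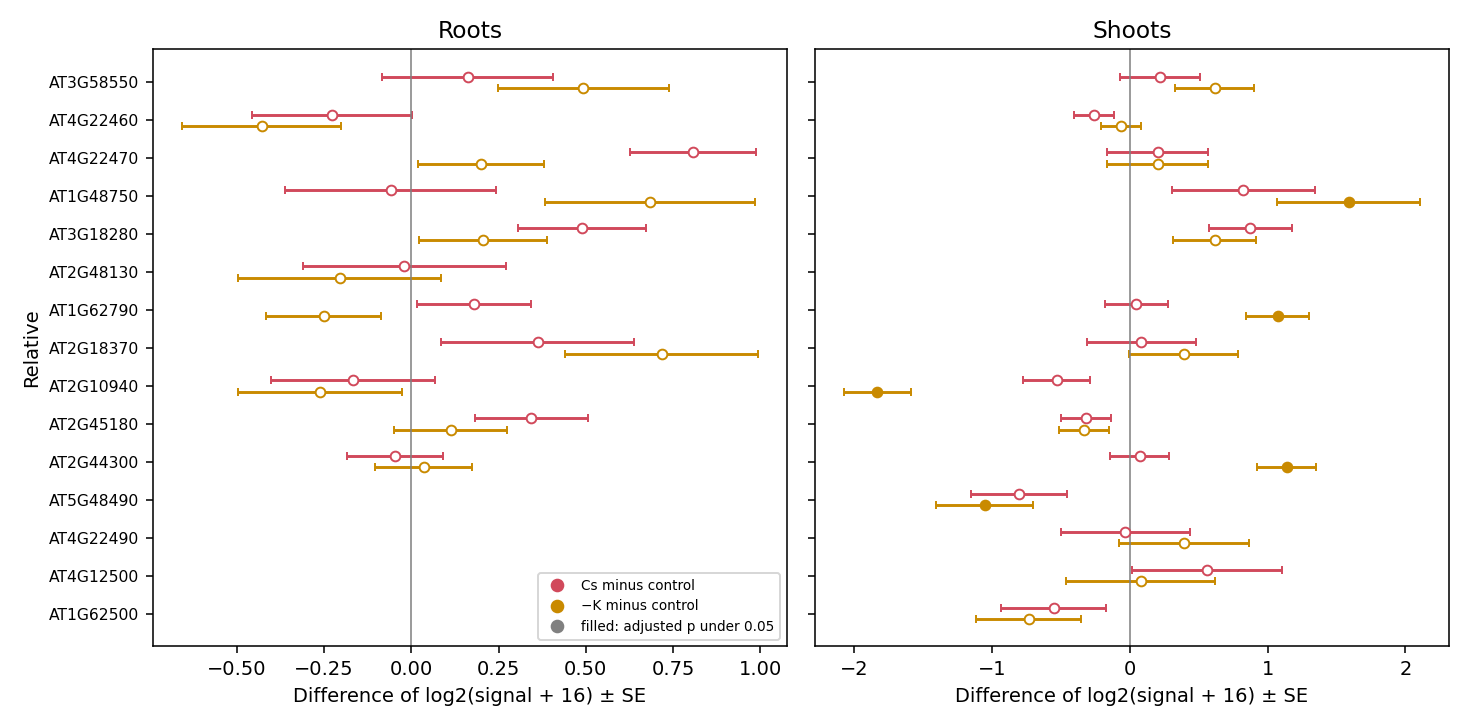
Differences of log2(signal + 16) from control, with standard errors, for the tested relatives in roots (left) and shoots (right), the axes differing in range; red is caesium-treated and ochre potassium-starved, and filled points passed an adjusted p of 0.05. The 5 filled points are all from potassium-starved shoots, 3 above 0 and 2 below, and none is from roots.

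Lists for the processes that these proteins have been linked to could hardly be read. Of 18 genes of systemic acquired resistance and salicylate 2 had a named probe set, of 24 for cutin and wax 1, which was not tested, and of 13 for suberin 0. Both defence genes rose in potassium-starved shoots, as did 12.2% of all tested probe sets, with a median of 1.11. AT5G52810, whose product completes the synthesis of the defence signal pipecolic acid, read 376.5, 309.4 and 236.8 in potassium-starved shoots and 117.5, 112.6 and 61.6 in control shoots (1.53 ± 0.25, adjusted p = 0.00171); caesium-treated shoots, at 80.3, 109.3 and 121.0, differed from potassium-starved ones by -1.43 ± 0.25 (adjusted p = 0.00351). SAG101, a partner of the immune regulator EDS1, read 96.1, 53.1 and 51.1 in potassium-starved shoots against 48.1, 27.0 and 28.5 in control shoots (0.69 ± 0.23, adjusted p = 0.0418), a call kept in 2 of 6 fits without 1 array and lost without the shoot arrays numbered 2 (adjusted p = 0.127). In roots 0 of these 2 genes passed in any comparison. At an unadjusted p under 0.05 by limma there was 1, SAG101 between caesium-treated and potassium-starved roots (adjusted p = 0.125). In that comparison 3392 of all 13646 probe sets had such a p.

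Genes whose pattern was most like that of a member were ranked by Pearson's r of the log2 signals, among probe sets that name 1 gene, as a description. Over the 18 arrays the closest to AT4G12490, of 6373, were AT2G38870 (r = 0.83), ECS1 (0.82), AT3G23550 (0.80), AT2G24600 (0.80) and AT2G17740 (0.74). In the 9 root arrays they were ECS1 (0.95), AT4G22470 (0.93), AT5G47455 (0.91), AT4G23885 (0.91) and AT1G49930 (0.90), of 7407. ECS1 read 77.1, 211.7 and 21.6 in caesium-treated roots, 11.4, 20.9 and 14.5 in potassium-starved roots and 11.0, 14.8 and 12.5 in control roots, highest on the same array as AT4G12490. In the 9 shoot arrays they were the glutaredoxin gene GRXC1 (0.98), AT4G12500 (0.97), AT1G23960 (0.96), AT3G16530 (0.95) and AT3G23550 (0.95), all sharing the step at replicate 2: GRXC1, for one, read 69.2, 225.6 and 70.4 in caesium-treated, 49.6, 121.6 and 49.0 in potassium-starved and 55.5, 177.4 and 28.7 in control shoots.

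For AT5G01870 the closest over 18 arrays were AT1G23410 (0.97), AT5G12420 (0.96), AT5G37690 (0.96), AT4G36430 (0.96) and AT1G49960 (0.96). These r values are carried mostly by the step between roots and shoots that all of them share; AT2G18370 (0.93, rank 31) and AT3G58550 (0.93, rank 38) were the nearest relatives. AT5G12420 encodes a protein of the wax ester synthase family and AT5G37690 a GDSL-type esterase. AT1G23410 read 361.9, 178.3 and 275.9 in caesium-treated roots, 92.0, 122.1 and 113.2 in potassium-starved roots and 202.0, 181.4 and 188.2 in control roots, with caesium-treated replicate 2 the lowest of its group, as in AT5G01870. Within roots the closest were AT5G49100 (0.96), AT2G27710 (0.96), AT1G04900 (0.96), AT1G75670 (0.95) and AT5G61170 (0.95); AT2G27710 and AT5G61170 encode ribosomal proteins. Within shoots, where AT5G01870 was dim, they were AT3G60180 (0.91), AT4G15260 (0.86), AT3G16190 (0.86), AT3G49790 (0.86) and AT1G60730 (0.85).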

How the data were processed

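Total RNA of roots and shoots was hybridised to 18 ATH1 arrays, 1 per sample. Each deposited value is a probe set's signal intensity, not log-transformed. Without the outer 2% of values the mean was 100.0 on every array, a scaling done by the authors with software not given in the sources used. Arrays give no read depth, and their number (3 per group) limits the precision.

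Of 22746 probe sets other than 64 controls, 13513 matched 1 gene in the platform annotation, 503 several, and 8730 were not listed and are unnamed here. Signals were taken as log2(signal + 16); differences on this scale understate changes of dim genes. Probe sets above the 40th percentile of mean signal (13646 in roots, 13647 in shoots, 11846 in both) were fitted with limma 3.58.1 in R 4.3.3, on the 9 arrays of an organ or on 18 for differences between organs. Standard errors of differences are limma's moderated ones. The spread within groups was pooled over the arrays fitted and drawn towards that of all tested probe sets. Such an SE can be smaller than the error from a gene's own arrays, and for both members it was smaller in roots and in shoots. P-values are two-sided and adjusted by the Benjamini-Hochberg method over all tested probe sets, with a threshold of 0.05. The fit was tried on simulated data with independent noise on each array. Same-numbered arrays did not deviate together there, so this trial cannot show how the fit fares where they do.

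The members and gene lists were chosen with earlier results of these data known. Named besides the members are list genes past the threshold (at most the 4 largest per list and comparison), measured genes of the chromosome 4 cluster, and the 5 genes most like each member; genes with high signal on the shoot arrays numbered 2, genes that passed only with the block, AT2G18370 and AT4G22470 were singled out after values were seen. Replicate numbers were taken to pair samples where same-numbered arrays deviated together from their group means (r over 0.1 in each of the 3 pairs). They did in all shoot comparisons (lowest r 0.214) and for caesium-treated against control roots (0.180), not for potassium-starved against control roots (-0.0307) or caesium-treated against potassium-starved roots (0.0861). Alternatives were other added constants, quantile normalization, median centring, no filter, the replicate block and leaving out arrays; leaving out the 3 shoot arrays numbered 2 was added after seeing the data.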

Additional observations from a re-analysis of the deposited data

Results flagged for a closer look

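The response to potassium starvation differed between roots and shoots, by limma's interaction term over the 18 arrays, for 3 relatives of the lipid transfer genes and 2 defence genes; 9.99% of all probe sets tested in both organs passed the same test. As root response minus shoot response, the log2 difference was -1.32 ± 0.28 for AT1G62790 (SE, adjusted p = 0.0074), -1.10 ± 0.25 for AT2G44300 (adjusted p = 0.0105) and 1.57 ± 0.36 for AT2G10940 (adjusted p = 0.00998). It was -1.49 ± 0.32 for AT5G52810 (adjusted p = 0.00729) and -1.0002 ± 0.30 for SAG101 (AT5G14930, adjusted p = 0.0442). Without the 3 shoot arrays numbered 2 the adjusted p was 0.0502 for AT2G10940 and 0.0843 for SAG101, which also passed in only 4 of 12 fits that left out 1 array.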

How the results depend on the processing

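The log2 differences of both members between caesium-treated and potassium-starved roots, and that of AT4G12490 between caesium-treated and control roots, kept their sign under every alternative. The groups compared did not overlap. Another added constant, no filter, the block or leaving out arrays could therefore not have reversed the sign, and only the sizes are informative. With 64 added to each signal AT4G12490 gave 1.07 against control and 1.06 against potassium starvation; leaving out 1 array gave 1.40 to 2.05 and 1.38 to 2.04. For AT5G01870, leaving out 1 array gave 0.61 to 1.33 for caesium-treated against control roots, -0.94 to -0.43 for potassium-starved against control roots and 1.26 to 1.97 for caesium-treated against potassium-starved roots. In shoots the AT4G12490 differences changed sign with 1 array left out, and the extremes were reached without an array numbered 2: -0.63 (without the caesium-treated array) to 1.62 (without the control array) for caesium-treated against control, -0.96 to 0.91 for potassium-starved against control and -0.49 to 1.52 for caesium-treated against potassium-starved shoots.

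With the replicate number as a block, relatives past the threshold numbered 1 in caesium-treated against potassium-starved roots (AT4G22470, adjusted p = 0.0296, where the numbers do not pair the samples), 1 in caesium-treated against control shoots, 8 in potassium-starved against control shoots and 5 in caesium-treated against potassium-starved shoots. In potassium-starved against control shoots 3 passed with 1 added to the signals and 3 without the filter, and 3 to 5 without 1 array; in caesium-treated against potassium-starved roots 0 to 1 did.

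Counts over all probe sets moved more. With the block they were 50 and 796 for caesium-treated against control roots and shoots, 725 for potassium-starved against control roots, 1628 for caesium-treated against potassium-starved roots, and 165 (caesium) and 2124 (potassium starvation) for the difference between organs. With 1 added they were 133 for potassium-starved against control roots, 50 for caesium-treated against control shoots and 6 for the caesium difference between organs; without the filter they were 1, 93 and 30 for caesium-treated against control roots, potassium-starved against control roots and caesium-treated against control shoots. Without the 2 arrays titled as repeats they were 1, 132 and 354 in the 3 root comparisons (caesium-treated against control, potassium-starved against control, caesium-treated against potassium-starved) and 2 and 735 for the organ differences in caesium and potassium starvation. Without the shoot arrays numbered 2 they were 0 for caesium-treated against control and 1729 for caesium-treated against potassium-starved shoots. Leaving out 1 array gave 0 to 13, 38 to 237 and 142 to 601 in the root comparisons in the same order, 0 to 107, 2393 to 3846 and 2102 to 3673 in those of shoots, and 1 to 30 and 741 to 1580 for the organ differences. The causes were not tested.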
